A study of Mus musculus with 8 samples.

Results

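Mitosis genes are 38 genes of G2 and M phase, the stages of the cell cycle in which a cell prepares to divide and then divides. They were taken as a list of gene names, and all 38 were found, each as 1 row, among the 54532 genes of the deposited table. The libraries were bulk RNA-seq of lung endothelial cells (ECs) from WT (wild-type, C57BL/6J per the study's methods) mouse pups at postnatal day 14. The normoxia group, titled Air 1 to 4, was kept in room air (21% O2) since birth. The hyperoxia group, titled Hyperoxia 1 to 4, breathed 80% O2 over the same period, a mouse model of bronchopulmonary dysplasia. The labels give no allele or agent other than WT and oxygen, and nursing dams changed between the groups each day. ECs were isolated with magnetic beads, first by removing cells that bound CD45 beads and then by collecting those that bound CD31 beads, so the RNA of any cell that passed these beads is included.

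In a dividing cell, the kinase CDK1 with its cyclins starts mitosis, kinetochores attach the chromosomes to the spindle, and a checkpoint holds back anaphase until every chromosome is attached. The anaphase-promoting complex (APC/C) then marks cyclin B and securin for destruction, and cytokinesis parts the daughter cells. Resting cells carry little of these transcripts, and their joint level in tissue is widely used as a sign of how many cells are cycling. Lung capillaries of mouse pups still grow at the age studied. In bulk RNA, fewer dividing cells and less transcript per dividing cell cannot be told apart.

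The promoters of mitosis genes are known for a pair of short motifs. The CHR (cell cycle genes homology region) is the site that the MuvB complexes bind, which repress these genes in resting cells as DREAM and activate them in G2 with B-MYB and FOXM1. The CCAAT box is the site of the factor NF-Y. Of the 38 genes, 31 had promoters in the RefSeq table of mouse build GRCm38.p6, with 33 windows of 250 bases before to 50 bases after a start. The CHR was searched as TTTGAA or TTCGAA on either strand and the CCAAT box as CCAAT on either strand. A CHR was found in 26 of the 33 windows (78.8%), compared with 14.1% of the 13902 windows of all tested genes and 19.2% of all 32851 windows in the table. A CCAAT box was found in 25 windows (75.8%), compared with 37.2% of those of tested genes and 37.4% of all windows. Both were found in 23 windows (69.7%), compared with 5.68% of tested genes and 7.52% of all windows. In the shorter window of the 200 bases before the start, a CHR was found in 12 of 33 (36.4%, compared with 9.21% of tested genes) and both motifs in 11 (33.3%, compared with 3.09%), while the CCAAT count was again 25. Of the windows of 30 DNA synthesis genes used below as a comparison, 5 of 29 (17.2%) held a CHR in the longer window and 16 (55.2%) a CCAAT box. Of the 75 longer windows of 80 other mitosis genes, also used below, 42 (56%) held a CHR. A CCAAT box was found in 47 (62.7%) of these 75 and both motifs in 29 (38.7%). A match of letters is a description and does not show that a factor binds.

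The stretches before the start of 5 of these genes are shown because their RNA levels are described below and because they show how the motifs are arranged. They are chr4:118437344-118437443 for Cdc20, chr10:69352913-69353012 for Cdk1, chr9:70421555-70421654 for Ccnb2, chr7:135716380-135716579 for Mki67 and chr11:99024190-99024389 for Top2a, all on the minus strand of GRCm38.p6 and written 5′ to 3′ up to the base before the RefSeq start. Capitals mark the CHR and the CCAAT box on either strand.
Cdc20: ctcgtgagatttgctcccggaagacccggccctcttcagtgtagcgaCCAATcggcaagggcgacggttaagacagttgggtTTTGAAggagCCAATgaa
Cdk1: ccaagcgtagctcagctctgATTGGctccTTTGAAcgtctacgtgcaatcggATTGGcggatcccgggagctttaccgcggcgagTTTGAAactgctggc
Ccnb2: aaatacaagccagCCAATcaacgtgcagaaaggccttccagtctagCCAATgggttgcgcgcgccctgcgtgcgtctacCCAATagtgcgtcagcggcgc
Mki67: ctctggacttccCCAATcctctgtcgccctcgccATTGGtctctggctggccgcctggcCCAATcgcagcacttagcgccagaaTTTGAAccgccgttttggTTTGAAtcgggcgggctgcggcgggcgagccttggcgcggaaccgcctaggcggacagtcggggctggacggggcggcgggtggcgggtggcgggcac
Top2a: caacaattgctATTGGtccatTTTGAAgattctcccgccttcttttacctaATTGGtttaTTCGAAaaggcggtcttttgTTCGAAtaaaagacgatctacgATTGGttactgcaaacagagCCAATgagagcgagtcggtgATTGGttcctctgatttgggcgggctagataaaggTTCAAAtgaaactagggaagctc
The last 9 bases of the Cdc20 stretch, with its second CCAAT box, and the last 26 of the Cdk1 stretch, with its second CHR, lie within the gene as the annotation of the deposited table has it. In these stretches Cdc20 carries 1 CHR between a pair of CCAAT boxes. Cdk1 has 2 CHRs and 2 CCAAT boxes, Ccnb2 has 3 CCAAT boxes and 0 CHRs in this stretch, Mki67 has 3 CCAAT boxes before 2 CHRs, and Top2a has 5 CCAAT boxes and 4 CHRs. The window of Pttg1 held neither motif, and neither did those of Mybl2, Birc5, Nuf2 and Nusap1.

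Libraries held 16098086 to 18300730 counts, and the members had 22 to 2120 counts per library, so all 38 passed the filter on low counts. Expression is given as CPM, the count scaled to the TMM-normalized library total. In 5 of the 8 libraries Xist had 8457 or more counts and Y-linked genes had 1553 or more. Normoxia 2 and hyperoxia 4 held 3 and 5 Xist counts beside 4201 and 4118 Y-linked counts. Hyperoxia 3 held 23970 Xist counts and 7 Y-linked counts. The part of sex in the differences between libraries was not tested. The labels do not say how many pups made up a library, or that the libraries came from separate pups, so p-values measure only the spread between these libraries, which may be technical.

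The question was whether transcripts of dividing cells differed between hyperoxic and normoxic lung ECs. With all 8 libraries, 3 of the 38 mitosis genes were lower in hyperoxia and none was higher (edgeR quasi-likelihood test, Benjamini-Hochberg adjusted p under 0.05). The genes that fell were Cdc20, Cenpa and Pttg1. The background was 17.1% of the 15564 genes tested lower and 18.5% higher by the same rule, so the share of mitosis genes called was below that of all genes. No mitosis gene reached an absolute log2 fold change of 1, which 6.98% of all genes did with the same p threshold. At an unadjusted p under 0.05, 6 members were lower and 0 were higher, where the shares over all genes were 22.2% and 23%, and DESeq2 and limma also called 0 higher. The median log2 fold change (hyperoxia relative to normoxia) was -0.16 over the 38 genes and -0.0040 over all genes tested, and the former was -0.095 without normoxia 2 and -0.27 without normoxia 1. The point estimates ranged from -0.43 for Cenpa to 0.17 for Spc25, with 25 below 0 and 13 above 0. Over all genes tested 7853 were below 0 and 7711 above 0. Of the 25 below 0, Top2a and Kif2c changed sign under at least 1 other setting, as did 11 of the 13 above 0. The groups did not overlap for 1 gene, Cdc20, which was lower, and for 0 higher, where the shares over all genes were 17.6% and 17.8%.

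**Figure D1:**
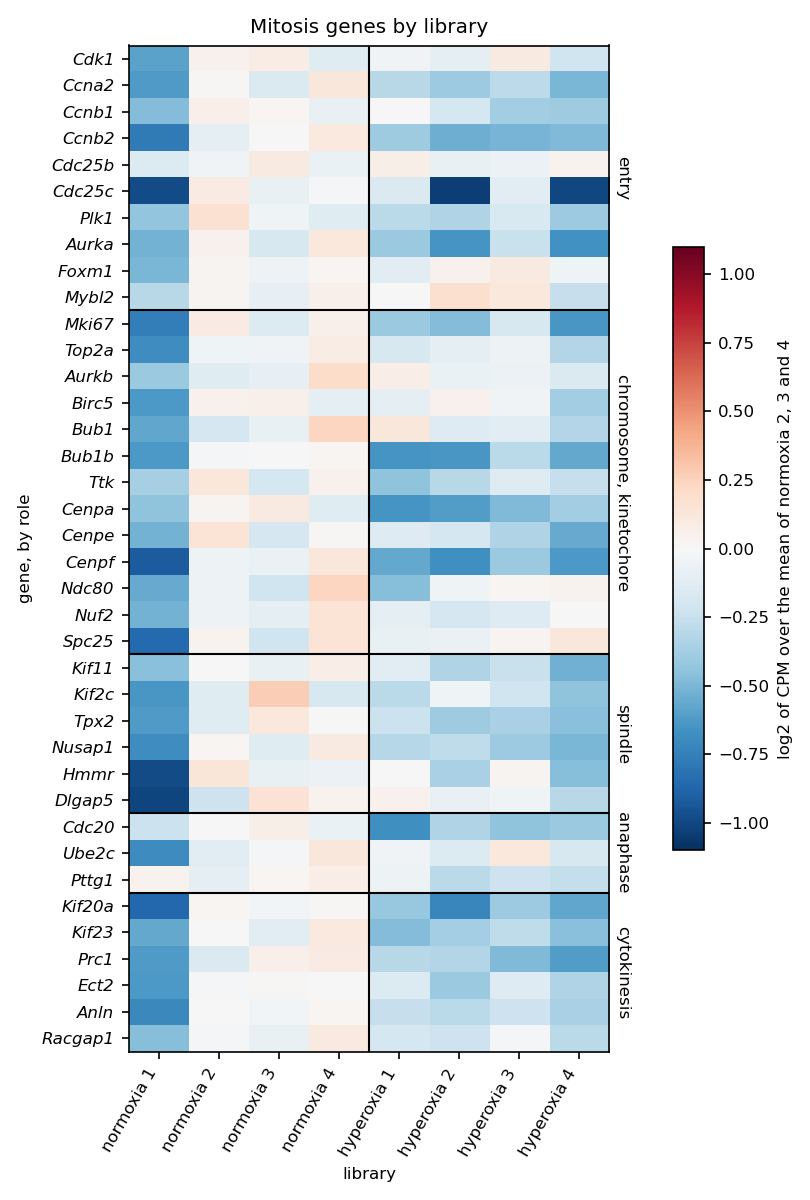
Level of each of the 38 mitosis genes (rows, by role) in each of the 8 libraries (columns), as log2 of CPM over the mean CPM of normoxia 2, 3 and 4; blue is lower and red is higher. Normoxia 1 is the lowest normoxia library in every row but that of Pttg1, and all 4 hyperoxia libraries lie above it in 29 rows.

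The 3 genes of anaphase and mitotic exit held 2 of the 3 calls. Cdc20, the APC/C activator that starts anaphase (ENSMUSG00000006398, chromosome 4, 118432901 to 118437352, minus strand, GRCm38), stood at 21.7, 25.8, 26.8 and 24.3 CPM in normoxia 1 to 4 and 16.04, 20.3, 18.8 and 19.4 CPM in hyperoxia 1 to 4. Every hyperoxia library lay below every normoxia library. Its level fell from 24.7 ± 2.20 to 18.6 ± 1.84 CPM (SD, n = 4 each) (log2 fold change -0.40, SE 0.0924, adjusted p 0.00614), and it remained past the threshold in each of 16 other settings (largest adjusted p 0.0182). Pttg1, which encodes securin, the inhibitor of the enzyme that separates sister chromatids (ENSMUSG00000020415, chromosome 11, 43420250 to 43426251, minus strand), stood at 27.7, 25.3, 27.5 and 28.4 CPM in normoxia 1 to 4 and 26.04, 22.1, 23.1 and 22.6 CPM in hyperoxia 1 to 4. Hyperoxia 1 lay between the normoxia libraries and the other 3 hyperoxia libraries lay below all of them. Pttg1 fell from 27.2 ± 1.38 to 23.5 ± 1.77 CPM (SD, n = 4 each) (log2 fold change -0.22, SE 0.0711, adjusted p 0.0362). This call was kept in 7 of the 16 other settings and lost in 9, with an adjusted p of up to 0.171. Leaving out normoxia 1, normoxia 3, normoxia 4, hyperoxia 2, hyperoxia 3 or hyperoxia 4 gave adjusted p-values of 0.0719, 0.0665, 0.0927, 0.105, 0.0691 and 0.0959. Ube2c, the ubiquitin-conjugating enzyme of the APC/C, stood at 18.4 and 19.5 CPM (adjusted p 0.706, 95% CI of the log2 fold change -0.25 to 0.41). Compared per length, Pttg1 and Cdc20 were among the most abundant members, with mean deposited FPKM values (counts scaled to gene length and library total) of 12.6 and 11.5.

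Among the 13 genes of chromosomes, kinetochores and the spindle checkpoint, only Cenpa passed the threshold. Cenpa, the histone variant that marks centromeres (ENSMUSG00000029177, chromosome 5, 30666777 to 30674830, plus strand), stood at 19.9, 27.5, 28.9 and 24.5 CPM in normoxia 1 to 4 and 17.2, 17.7, 19.2 and 20.7 CPM in hyperoxia 1 to 4. Normoxia 1 lay among the hyperoxia libraries and the other 3 normoxia libraries lay above all of them. Cenpa fell from 25.2 ± 3.98 to 18.7 ± 1.57 CPM (SD, n = 4 each) (log2 fold change -0.43, SE 0.114, adjusted p 0.0134), and it remained past the threshold in each of the 16 other settings (largest adjusted p 0.0423). Bub1b, which encodes the checkpoint protein BUBR1, stood at 14.6, 22.2, 22.7 and 22.9 CPM in normoxia 1 to 4 and 14.4, 14.5, 18.4 and 15.3 CPM in hyperoxia 1 to 4. Normoxia 1 lay among the hyperoxia libraries and normoxia 2, 3 and 4 lay above all of them. Of the members that missed the threshold, Bub1b was the nearest to it (log2 fold change -0.40, SE 0.145, adjusted p 0.0545), and 6 of the 16 other settings called it lower. Cenpf, a large kinetochore protein, had 32.1 and 24.5 CPM (log2 fold change -0.39, SE 0.179, adjusted p 0.117). Its normoxia libraries ranged from 19.2 to 39.7 CPM, and its hyperoxia libraries, at 22.7 to 27.3 CPM, lay inside that range.

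Mki67 and Top2a are the members most often used to mark cycling cells. Mki67, which coats mitotic chromosomes, stood at 66.1, 119, 101 and 116 CPM in normoxia 1 to 4 and 84.6, 80.4, 99.4 and 71.8 CPM in hyperoxia 1 to 4. Hyperoxia lay between normoxia 1 and the other normoxia libraries, and the difference was not past the threshold (log2 fold change -0.26, SE 0.164, adjusted p 0.244). Top2a, the topoisomerase that untangles sister chromatids and the member of this role with the highest FPKM (10.99), stood at 68.9, 107, 108 and 117 CPM in normoxia 1 to 4 and 98.04, 103, 107 and 88.6 CPM in hyperoxia 1 to 4. The group means were close to each other (log2 fold change -0.02, SE 0.137, adjusted p 0.93), with a 95% CI of -0.32 to 0.28. Aurkb and Birc5, the kinase and survivin of the chromosomal passenger complex, had log2 fold changes of 0.04 and 0.02. The checkpoint kinases Bub1 and Ttk had 0.02 and -0.20, and the kinetochore motor Cenpe had -0.18. The subunits of the NDC80 complex, which grips microtubules, had 0.02 for Ndc80, 0.01 for Nuf2 and 0.17 for Spc25, the highest estimate of the 38 (95% CI -0.21 to 0.56). None of these 8 was past the threshold (adjusted p 0.278 to 0.975).

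None of the 10 genes of mitotic entry passed the threshold. Ccnb2, a B-type cyclin and the member with the highest FPKM (12.9), stood at 14.3, 22.9, 24.5 and 26.5 CPM in normoxia 1 to 4 and 18.8, 16.99, 17.2 and 17.6 CPM in hyperoxia 1 to 4. The hyperoxia libraries were tightly grouped between normoxia 1 and normoxia 2, 3 and 4 (log2 fold change -0.32, SE 0.157, adjusted p 0.134). Cdk1, the kinase that cyclin B activates, stood at 17.1, 26.6, 27.2 and 23.4 CPM in normoxia 1 to 4 and 25.01, 24.01, 27.6 and 22.1 CPM in hyperoxia 1 to 4. Hyperoxia and normoxia overlapped widely (log2 fold change 0.06, SE 0.134, adjusted p 0.741). Aurka, the kinase of the spindle poles, had the lowest estimate of this role, at 9.59 and 7.44 CPM (log2 fold change -0.37, SE 0.158, adjusted p 0.0935). Ccna2 and Ccnb1, the other cyclins, had log2 fold changes of -0.24 and -0.13, and Plk1, the polo kinase, had -0.20. The phosphatases that activate CDK1 had 0.03 for Cdc25b and -0.33 for Cdc25c. Cdc25c was the scarcest member by CPM, at 1.35 to 2.85 CPM in normoxia and 1.30 to 2.46 CPM in hyperoxia, and its 95% CI was wide (-0.99 to 0.34). Foxm1 and Mybl2, which encode the transcription factors FOXM1 and B-MYB that activate many mitosis genes, stood at 29.1 and 31.4 CPM and 11.7 and 12.5 CPM (adjusted p 0.484 and 0.596).

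**Figure D2:**
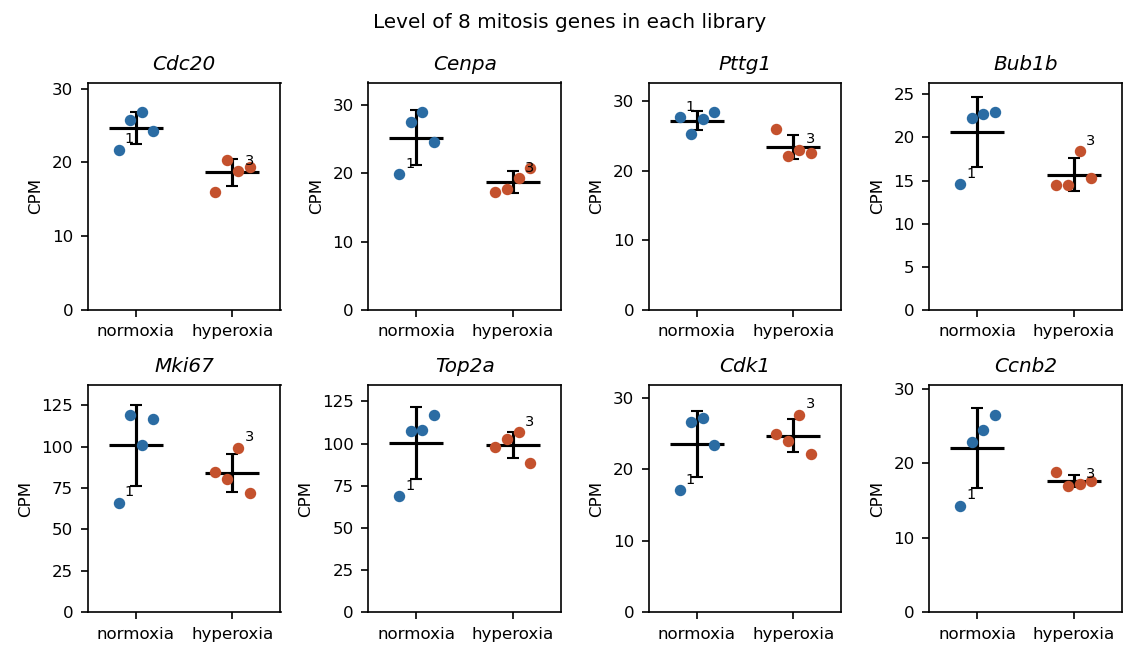
CPM of 8 mitosis genes in each library (points), with the mean and SD of the 4 libraries of each group (lines); 1 marks normoxia 1 and 3 marks hyperoxia 3. Normoxia 1 is the lowest normoxia library in 7 panels, and only Cdc20 has groups that do not overlap.

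The spindle and cytokinesis genes had no call either. Kif11, the motor that pushes the spindle poles apart, stood at 24.7, 34.2, 32.3 and 35.7 CPM in normoxia 1 to 4 and 31.5, 27.1, 28.7 and 23.6 CPM in hyperoxia 1 to 4 (log2 fold change -0.20, SE 0.119, adjusted p 0.225). Nusap1, which binds spindle microtubules, had the lowest estimate among the spindle genes, at 18.5 and 15.8 CPM (log2 fold change -0.23, SE 0.147, adjusted p 0.252). Tpx2, which nucleates spindle microtubules, was close to it (log2 fold change -0.23, SE 0.134, adjusted p 0.213), and Kif2c, a motor that shortens microtubules, had a log2 fold change of -0.11. The spindle proteins Hmmr and Dlgap5 had 0.01 and 0.10, with 95% CIs of -0.48 to 0.49 and -0.38 to 0.57. All 6 cytokinesis genes had estimates below 0. Kif20a, a motor of the central spindle, stood at 8.33, 15.4, 14.8 and 15.3 CPM in normoxia 1 to 4 and 11.4, 9.23, 11.5 and 10.2 CPM in hyperoxia 1 to 4 (log2 fold change -0.35, SE 0.180, adjusted p 0.157). Racgap1, a subunit of the centralspindlin complex, was the cytokinesis gene with the highest FPKM (4.83) and stood at 35.3 and 33.5 CPM (log2 fold change -0.08, SE 0.109, adjusted p 0.616). Its partner Kif23 had -0.28, the microtubule bundler Prc1 had -0.30, the RhoA activator Ect2 had -0.12 and the ring scaffold Anln had -0.14.

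The spread within normoxia was set largely by 1 library. Normoxia 1 was the lowest normoxia library for 37 of the 38 genes (97.4%), the exception being Pttg1, and the lowest of all 8 libraries for 29 (76.3%). Among the 10276 tested genes whose mean lay in the same range of CPM, those shares were 22.9% and 10.5%. The level in normoxia 1 was 49.8% to 102% of the mean of normoxia 2, 3 and 4, with a median of 65.7%, compared with a median of 100.4% over the genes in that range. The lowest percentages were those of Dlgap5 (49.8%), Hmmr (50.4%) and Cdc25c (50.4%), and the highest after Pttg1 were those of Cdc25b (90.2%) and Cdc20 (84.8%). The median coefficient of variation of the 38 genes was 19.9% over the 4 normoxia libraries, 7.94% over normoxia 2, 3 and 4, and 9.28% over hyperoxia. For the genes in that range of CPM it was 9.16%, 8.63% and 7.95%. These genes were read in the same libraries and moved together, so the 37 genes are not 37 separate observations. Over the 703 pairs of members the median Pearson correlation of log2 CPM was 0.67 over the 8 libraries and 0.52 without normoxia 1.

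**Figure D3:**
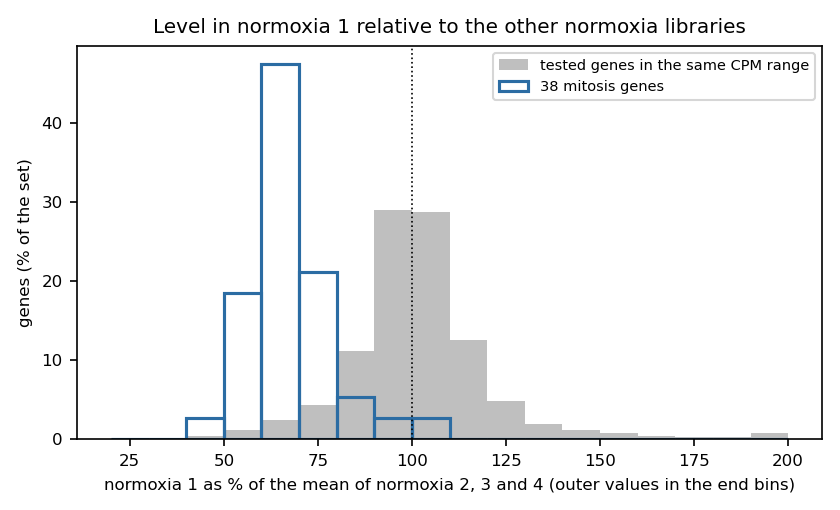
Share of genes (vertical axis, percent of each set) by their level in normoxia 1 as a percentage of the mean of normoxia 2, 3 and 4 (horizontal axis), for the 38 mitosis genes (outlined) and the tested genes in the same range of CPM (grey). The mitosis genes centre on 65.7% and the other genes on 100.4%.

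The mean log2 CPM of the 38 genes was 3.69, 4.26, 4.23 and 4.31 in normoxia 1 to 4 and 4.04, 3.98, 4.09 and 3.90 in hyperoxia 1 to 4. Within hyperoxia, hyperoxia 4 was the lowest library for 22 genes (57.9%) and hyperoxia 3 for 0, while hyperoxia 3 was the highest for 18 (47.4%). Among the genes in the range of CPM those shares were 23.8%, 28.8% and 26.2%. The hyperoxia libraries differed less among themselves than normoxia 1 did from the rest. All 4 hyperoxia libraries lay above normoxia 1 for 29 genes (76.3%, compared with 32.4% of the genes in the range of CPM), and all 4 lay below normoxia 2, 3 and 4 for 19 (50%, compared with 20.7%). Both counts set normoxia 1 apart because of its low values for these same genes. The genes also moved together, so the counts are a description and not evidence of a difference.

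When each of the 8 libraries was left out in turn, leaving out normoxia 1 gave 15 members lower and 0 higher, and leaving out any of the other 7 gave 2 or 3 lower. Without normoxia 1, 15.5% of 15952 genes tested were lower and 17.2% were higher. The median log2 fold change of the 38 genes was then -0.27, and 36 of the 38 estimates were below 0. Of the 15564 genes tested with all libraries, 7942 had estimates below 0 without normoxia 1. Normoxia 1 was singled out here because of its low values for these same genes, so the p-values without it are a description of the other 7 libraries and not independent evidence. The 15 genes came from every role. In entry they were Ccnb2 at -0.48 (adjusted p 0.00148), Ccna2 at -0.37 (adjusted p 0.00827) and Aurka at -0.48 (adjusted p 0.0241). Among chromosome and checkpoint genes they were Cenpf at -0.57 (adjusted p 0.000759), Bub1b at -0.53 (adjusted p 0.0028), Cenpa at -0.53 (adjusted p 0.00185) and Mki67 at -0.42 (adjusted p 0.0115). The spindle gave Tpx2, Nusap1 and Kif11 at -0.36, -0.37 and -0.30, and anaphase gave Cdc20 at -0.46 (adjusted p 0.00395). Cytokinesis gave 4 of 6 genes, Kif20a, Prc1, Kif23 and Anln, at -0.52, -0.43, -0.40 and -0.28. Pttg1 stood at -0.21 (adjusted p 0.0719) and was no longer past the threshold. Foxm1, Mybl2, Spc25 and Cdc25b then had estimates near 0, at -0.00414, 0.02, 0.00213 and -0.01.

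**Figure D4:**
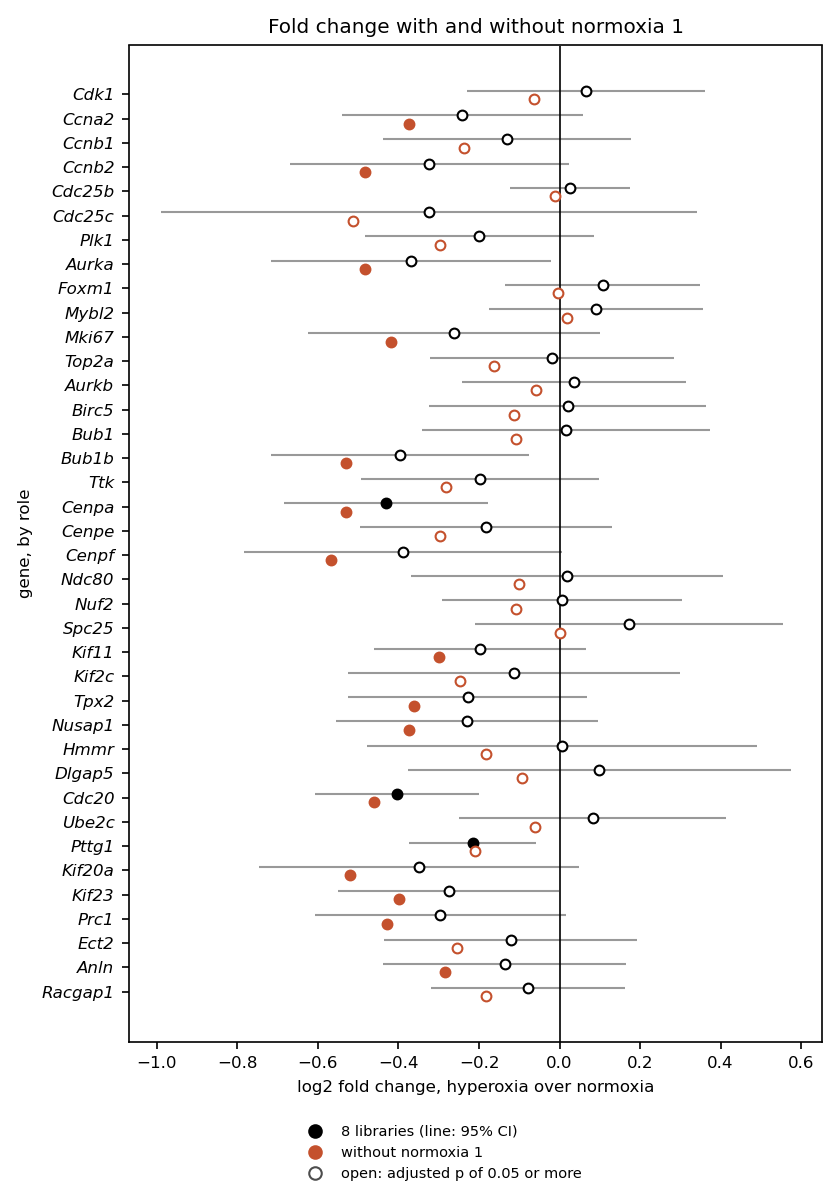
Log2 fold change of each mitosis gene (hyperoxia over normoxia) with all 8 libraries (black, grey line for the 95% CI) and without normoxia 1 (orange); filled points have an adjusted p under 0.05. With all libraries 3 points are filled, and without normoxia 1 there are 15 filled points, all to the left of 0.

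The 80 other mitosis genes, a list of further checkpoint, kinetochore, condensin and spindle genes, all passed the filter on low counts. With all libraries 5 were higher and 10 were lower, with a median log2 fold change of -0.07. Of all genes tested 18.5% were higher and 17.1% lower, so both shares of this list were below those of all genes. Aspm, a spindle pole protein, stood at 13.2, 27.3, 21.6 and 26.3 CPM in normoxia 1 to 4 and 14.5, 14.6, 17.97 and 12.6 CPM in hyperoxia 1 to 4. Its groups overlapped through normoxia 1, and its call was near the threshold (log2 fold change -0.57, SE 0.201, adjusted p 0.0482). Smc4, a condensin subunit, fell from 89.4 ± 7.17 to 63.2 ± 5.17 CPM (SD, n = 4 each) with -0.50 (adjusted p 0.000395). The 3 largest rises were those of Gtse1, Psrc1 and Ckap2. Gtse1 stood at 4.53, 6.49, 6.60 and 6.13 CPM in normoxia 1 to 4 and 30.5, 30.4, 28.4 and 29.7 CPM in hyperoxia 1 to 4. Psrc1 stood at 3.18, 4.95, 4.48 and 4.86 CPM in normoxia 1 to 4 and 21.6, 23.6, 16.5 and 21.02 CPM in hyperoxia 1 to 4. The groups were far apart for both, with log2 fold changes of 2.32 (SE 0.110, adjusted p 2.15e-07) and 2.24 (SE 0.155, adjusted p 2.56e-06). Gtse1 and Psrc1 encode microtubule proteins that are also known as p53-inducible genes. Ckap2 rose with a log2 fold change of 0.60 (adjusted p 0.0187). Normoxia 1 was the lowest normoxia library for 69 of the 80 genes (86.3%, compared with 23.5% of all genes tested). Without it 22 of the 80 were lower and 6 were higher, compared with 15.5% and 17.2% of all genes tested. Leaving out hyperoxia 4 gave 5 lower.

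DNA synthesis precedes mitosis in the cell cycle, and 30 genes of S phase were taken for comparison. With all libraries 9 of them were higher and 0 were lower, with 0 lower at an unadjusted p under 0.05 and 0 lower in DESeq2 and limma. Leaving out hyperoxia 3 gave 1 lower. Over all genes tested 18.5% were higher and 17.1% lower, and 22.2% were lower at an unadjusted p under 0.05. The median log2 fold change of the 30 genes was 0.20. Of their estimates 27 of 30 were above 0, compared with 7711 of the 15564 genes tested. Pole, the catalytic subunit of DNA polymerase epsilon, rose from 15.9 ± 2.54 to 22.6 ± 2.89 CPM (SD, n = 4 each) (log2 fold change 0.51, SE 0.128, adjusted p 0.0104), and Mcm10, a replication initiation factor, rose with 0.50 (adjusted p 0.0238). The mean log2 CPM of the list was 3.89, 4.05, 4.15 and 4.15 in normoxia 1 to 4 and 4.18, 4.22, 4.50 and 4.16 in hyperoxia 1 to 4. Hyperoxia 3 was the highest hyperoxia library for 24 of the 30 genes and normoxia 1 the lowest normoxia library for 20. Over all genes tested those shares were 27.5% and 23.5%. The number of the 30 called higher was 4 without normoxia 1, normoxia 2 or hyperoxia 2 and 5 without hyperoxia 3. Without normoxia 1, 17.2% of all genes tested were higher. The mean of the mitosis genes minus that of the DNA synthesis genes was -0.20, 0.21, 0.08 and 0.15 log2 units in normoxia 1 to 4 and -0.14, -0.25, -0.42 and -0.26 in hyperoxia 1 to 4. On this difference hyperoxia lay below normoxia 2, 3 and 4, and normoxia 1 lay between hyperoxia 1 and hyperoxia 2.

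**Figure D5:**
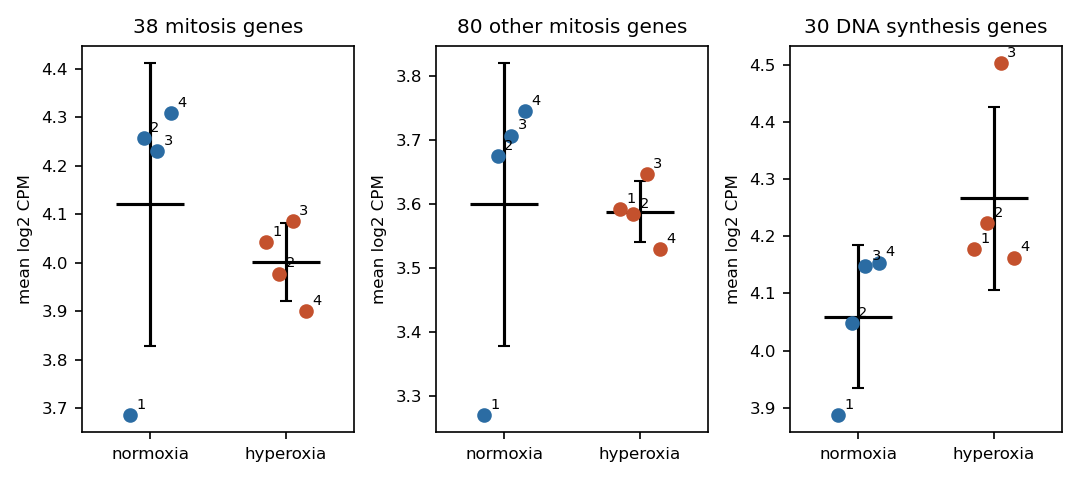
Mean log2 CPM of 3 gene lists in each library (numbered points), with the mean and SD of the 4 libraries of each group (lines). For the mitosis genes normoxia 1 lies at 3.69, below all other libraries, and for the DNA synthesis genes hyperoxia 3 lies highest.

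Of 12 genes of the MuvB and DREAM complexes and their upstream inhibitor of CDKs, 7 were lower and 2 were higher. Of all genes tested 17.1% were lower and 18.5% higher. Cdkn1a, which encodes the CDK inhibitor p21 and belongs to the p53 targets, rose from 168 ± 25.2 to 909 ± 57.1 CPM (SD, n = 4 each) (log2 fold change 2.44, SE 0.0998, adjusted p 8.44e-08). Tfdp2, a partner of E2F factors, had the lowest log2 fold change of the 7 (log2 fold change -0.38, SE 0.0675, adjusted p 0.0014), while its paralog Tfdp1 rose with 0.23 (adjusted p 0.0065). Tfdp1 was named after its values were seen. The number lower was 5 without normoxia 3 and 2 to 4 when any of the other 7 libraries was left out, 2 when libraries were scaled by pan-endothelial markers and 3 with no filter on low counts.

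None of 18 pan-endothelial markers was at 0 in any library, and Cdh5, which encodes VE-cadherin, averaged 4121 and 4035 CPM in normoxia and hyperoxia. None of the 17 alveolar epithelial or 12 leukocyte markers was at 0 either, so these values do not show how pure the isolates were. The summed CPM of the 18 markers was 21590.1 to 23140.5 in normoxia and 20624 to 22051 in hyperoxia, and 6 were higher and 6 lower. Alveolar epithelial markers were higher for 17 of 17, with sums of 312 to 428 CPM in normoxia and 919 (hyperoxia 3) to 2742 CPM in hyperoxia. Mural markers were higher for 7 of 8 tested, with sums of 47.01 to 82.8 and 103 to 181 CPM. For these sums the exact two-sided permutation p was 0.0286, the smallest that the 70 assignments allow, and 0.0857 after adjustment over 6 lists. Fibroblast markers were higher for 4 of 7 tested and lower for 1 (124 to 184 and 148 to 297 CPM). Leukocyte markers were higher for 1 and lower for 1 of 12 (202 to 427 and 266 to 615 CPM), and erythroid markers were lower for 5 of 6 tested (117 to 213 and 88.5 to 125 CPM). The most abundant member of each list was Sftpc, a surfactant gene (106 and 1121 CPM in normoxia and hyperoxia), Rgs5 of pericytes (28.7 and 61.8 CPM), Col1a2 of collagen (40.97 and 91.1 CPM), Lyz2 of myeloid cells (77.3 and 225 CPM) and the globin gene Hbb-bs (83.5 and 53.03 CPM). Lum, Cnn1 and Rhag were at 0 in at least 1 library. Normoxia 1 had the highest normoxia sums of epithelial (428 CPM), fibroblast (184 CPM), mural (82.8 CPM, compared with 47.01 to 55.1 CPM in normoxia 2, 3 and 4) and erythroid markers (213 CPM, compared with 208 CPM in normoxia 3). Its leukocyte sum was 310 CPM, compared with 427 CPM in normoxia 3. Normoxia 1 also had the smallest library total. The part of these cells and of depth in the mitosis values was not tested.

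Some members overlap other genes on the genome. In the GENCODE M21 annotation of GRCm38, which gave 36 of the 38 genes the same start and end as the deposited table, exons of Cdc23 on the other strand cover 29.3% of the exon bases of Kif20a. Exons on the other strand also cover 22.8% of Ube2c (Tnnc2, 0 to 2 counts) and 12.5% of Ccna2 (Exosc9, 208 to 307 counts). Such exons cover 11.1% of Prc1 (Rccd1, 103 to 135 counts) and 2.84% of Cdc20 (Elovl1, 1809 to 2110 counts). Kif20a itself had 136 to 277 counts per library, compared with 735 to 919 for Cdc23, and Cdc20 had 281 to 479. The strand setting of the counting was not stated, so reads of these pairs may be mixed or left out. Ccnb1, Ccnb2 and Ube2c have processed pseudogenes in the table with 2 to 10, 15 to 35 and 12 to 35 counts per library.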

How the data were processed

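The 8 libraries (4 per group) were made from bead-isolated lung ECs and sequenced as paired reads. Per the labels, RNA was taken with an RNeasy kit and a SMARTER mRNA-seq kit was used, while the study's methods name TRIzol. The submitters' processing notes name HISAT2 2.0.5, featureCounts 1.5.0-p3 and build mm10. The settings for strand and for reads with several hits were not given in the sources used here. The table deposited by the authors held raw read counts per gene and FPKM values that the authors made from those counts and gene length. Library totals were 16098086 to 18300730 counts.

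Counts were analysed in R 4.3.3 with edgeR 4.0.16 (filterByExpr, TMM, quasi-likelihood test, Benjamini-Hochberg adjustment over all 15564 genes kept). CPM used the TMM-normalized totals, and log2 CPM a prior count of 2. FPKM values were used to compare levels between genes and, as log2(FPKM + 0.1), in limma 3.58.1 as an alternative. DESeq2 1.42.0, other scalings and filters, a replicate block and leaving out each library were the other alternatives. Marker sums were compared by exact permutation tests. The fit was tested on simulated data with 200 changed genes. Of those with an absolute log2 fold change of 1 or more, 88.1% were called. The estimates of the members were smaller than 1 in size, so this share does not describe changes of their size. Intervals from the fit are 95% CIs.

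The members and all other lists were chosen with earlier results of these data known. All members are named. Full statistics are given for those past the threshold and, in each role, for the member with the highest FPKM and that with the largest log2 fold change. Of the other mitosis genes, the 3 lowest and 3 highest called are named (1 of them is not reported here), of the DNA synthesis and MuvB lists the called genes with the 2 largest changes and Cdkn1a, and of each marker list its most abundant member. Promoters came from RefSeq. Those of Ccna2, Cdc25c, Foxm1, Aurkb, Tpx2, Dlgap5 and Kif20a were not analysed here.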

Additional observations from a re-analysis of the deposited data

Results flagged for a closer look

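In normoxia, 1 library stood far from the other 3 for 4 mitosis genes and for the mean of 2 gene lists, measured as the gap from the lowest library to the next as a share of the range of the group. That library was normoxia 1 each time. The share was 0.919 for Bub1b, 0.923 for Kif20a, 0.938 for Ect2 and 0.912 for Anln. It was 0.876 for the mean log2 CPM of the 38 mitosis genes and 0.853 for that of the 80 other mitosis genes. Chance marks about 1 in 20 groups in this way. Of the 82 groups examined 6 were marked, where about 4.1 would be marked by chance. The genes are read in the same library, so these are not separate observations. Normoxia 1 also had the smallest total count. Its sums of epithelial, fibroblast, mural and, by a small margin, erythroid markers were the highest of normoxia, while its leukocyte sum was not. The part of total count and of these markers in its low mitosis values was not tested.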

How the results depend on the processing

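The 16 other settings left the number of mitosis genes called higher at 0, and the number lower ran from 2 to 15 when 1 library was left out, with 15 only without normoxia 1. Leaving out 1 library gave 5 to 22 other mitosis genes lower, 4 to 9 DNA synthesis genes higher and 0 to 1 lower, and 2 to 5 MuvB and DREAM genes lower. The last count was 2 with scaling by pan-endothelial markers, 3 with no filter on low counts and 2 with the replicate block. The causes of these changes were not tested. Over all genes, leaving out 1 library gave 2393 to 2832 genes higher and 2133 to 2613 lower. The correlations of same-numbered deviations were 0.12, 0.036, -0.13 and -0.14. With 4 libraries per group these values cannot show whether the replicate numbers pair the libraries. With the replicate block 3 mitosis genes were lower and 2582 of all genes were higher. Of the promoters, 36.4% held a CHR within the 200 bases before the start, compared with 9.21% of tested genes.

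Signs turned for Top2a, at 0.033 with pan-endothelial scaling, 0.011 in limma on FPKM and 0.0043 with the replicate block. With the library total alone they turned for Birc5 (-0.0033), Bub1 (-0.0049), Ndc80 (-0.0019), Nuf2 (-0.014) and Hmmr (-0.015). Leaving out 1 library gave log2 fold changes of -0.063 to 0.14 for Cdk1, -0.011 to 0.074 for Cdc25b, -0.0041 to 0.15 for Foxm1, -0.16 to 0.062 for Top2a, -0.058 to 0.15 for Aurkb, -0.11 to 0.10 for Birc5, -0.11 to 0.16 for Bub1, -0.10 to 0.16 for Ndc80, -0.11 to 0.10 for Nuf2, -0.25 to 0.049 for Kif2c, -0.18 to 0.13 for Hmmr, -0.094 to 0.24 for Dlgap5 and -0.062 to 0.18 for Ube2c.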
